A study of Mus musculus with 16 samples.

Results

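Ribosome biogenesis was read out here through 35 mouse genes that encode subunits of RNA polymerase I, nucleolar proteins and rRNA processing factors. The genes were taken from a list of gene symbols, matched to the Ensembl identifiers of the deposited tables, and all 35 were found among 46517 identifiers per library. The list was not made from a measured contrast, but it was drawn up with results of these data known. RNA came from live-gated CD4+CD8+ thymocytes sorted from 16 mice aged 6 to 7 weeks, with 1 library per mouse. All mice were NOD-AI4, which bear a transgenic receptor from the islet-reactive CD8 clone AI4 on the diabetes-prone NOD background. The controls were 6 NOD-AI4 mice without a further label (3 males, 3 females). The second group was 5 mice labelled NOD-AI4-Nfkbid-/- (4 males, 1 female), and the third was 5 mice labelled NOD-AI4-60A, the Nfkbid transgenic (3 males, 2 females). The series title sets loss and excess of Nfkbid, a gene for a nuclear IκB protein, beside the thymic deletion of AI4 cells. The knockout allele and the promoter that drives the transgene are not given in the sources used here.

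Ribosomes are assembled in the nucleolus. RNA polymerase I transcribes a long precursor rRNA there, small nucleolar RNPs guide its methylation (box C/D) and pseudouridylation (box H/ACA), and further factors cleave, fold and pack it into the small and large subunits. Cells that grow and divide need this pathway most, and the transcription factor Myc, which binds the E-box CACGTG, is a known activator of it. In the thymus, double-positive cells arise from dividing precursors and are then mostly small, resting cells.

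Controls had 17955743 to 26586220 estimated counts per library, transgenic mice 18546570 to 25836799 and knockout-labelled mice 21662210 to 35637813. Nfkbid itself was at 28.9 to 36.9 CPM (counts scaled by TMM to a common library size) in controls and at 28.2 to 37.8 CPM in knockout-labelled libraries, which are therefore called by their label throughout. A count over the whole gene does not show a deletion inside it or a loss of protein. Transgenic libraries had 114.7 to 309.6 CPM. The mouse identifiers of all controls start with one prefix and those of both other groups with another, so genotype and whatever the prefix stands for cannot be told apart in either comparison with controls. The transgenic libraries can be set against the knockout-labelled ones within 1 prefix. Of 14 genes listed as double-positive thymocyte markers, 14 passed the filter on low counts, and Cd4 (666.2 to 1125 CPM) and Cd8a (1598 to 2342 CPM) were high in every library.

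Sequences of promoters and of snoRNAs inside these genes come first, because later results refer to them. Of the 35 genes, 29 had an entry among the RefSeq promoters (GRCm38.p6, 250 bases before to 50 after the start). CACGTG, which reads the same on both strands, lay in the 250 bases before the start in 2 of the 29 (6.9%), against 1854 of 27025 entries of the whole table (6.86%). The 2 were Imp4 and Nop2, of which Nop2 rose against controls in both comparisons and Imp4 in neither. Their 250 bases, chr1:34439579-34439828 on the plus strand and chr6:125131633-125131882 on the plus strand, are given with the motif in capitals.
Imp4: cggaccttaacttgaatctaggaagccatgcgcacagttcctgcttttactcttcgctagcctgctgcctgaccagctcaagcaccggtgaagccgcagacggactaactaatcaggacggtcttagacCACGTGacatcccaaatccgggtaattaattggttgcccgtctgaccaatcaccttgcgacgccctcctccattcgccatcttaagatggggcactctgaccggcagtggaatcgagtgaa
Nop2: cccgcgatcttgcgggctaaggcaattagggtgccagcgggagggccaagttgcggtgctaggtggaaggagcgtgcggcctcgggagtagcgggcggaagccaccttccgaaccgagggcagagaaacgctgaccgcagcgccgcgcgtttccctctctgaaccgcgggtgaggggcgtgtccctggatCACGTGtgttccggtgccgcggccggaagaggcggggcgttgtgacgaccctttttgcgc

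With the 50 bases after the start included, a window chosen after the first count was seen, 6 of 29 genes (20.7%) held the motif, against 2187 of 27025 entries (8.09%). The other four, each shown as 30 bases around the motif, were Utp20 (chr10:88826765-88826794, minus strand), Pes1 (chr11:3963965-3963994), Mybbp1a (chr11:72441347-72441376) and Wdr43 (chr17:71616220-71616249), all but Utp20 on the plus strand. A match of letters is not a binding site.
Utp20: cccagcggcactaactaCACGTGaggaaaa
Pes1: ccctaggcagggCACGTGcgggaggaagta
Mybbp1a: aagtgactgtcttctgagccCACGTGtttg
Wdr43: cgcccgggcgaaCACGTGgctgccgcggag

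Small nucleolar RNAs are often encoded inside genes of this pathway. In the GENCODE annotation of GRCm38, 19 snoRNA genes lay on the same strand within 6 of the 35 genes (17.1%), against 237 of the 14933 genes tested (1.6%). Nop56 held 5, Nop58 4, Ncl, Gnl3 and Wdr43 3 each, and Dkc1 1. In 8 of the 19, the C box TGATGA was found in the first 25 bases and the D box CTGA in the last 15. A snoRNA each from Nop56 (chr2:130275506-130275573, plus strand), Nop58 (chr1:59704790-59704873, plus strand), Ncl (chr1:86356261-86356330, minus strand) and Wdr43 (chr17:71631281-71631365, plus strand) is given with both boxes in capitals. The snoRNAs themselves were counted at 4 or fewer estimated counts in every library, so their levels were not readable, and fractional counts in the host genes were not traced to them.
Snord110 (in Nop56): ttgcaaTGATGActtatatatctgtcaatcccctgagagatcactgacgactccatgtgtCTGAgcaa
Snord11 (in Nop58): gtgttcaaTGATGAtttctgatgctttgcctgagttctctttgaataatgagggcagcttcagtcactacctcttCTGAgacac
Snord82 (in Ncl): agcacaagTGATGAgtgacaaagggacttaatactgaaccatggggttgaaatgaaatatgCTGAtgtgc
Snord92 (in Wdr43): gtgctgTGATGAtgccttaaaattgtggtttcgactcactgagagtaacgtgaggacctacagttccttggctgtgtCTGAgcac

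All 35 genes passed the filter on low counts, with 130 to 28139 estimated counts per library. By the authors' TPM, a scale per transcript length, control levels ran from 3.37 ± 0.51 (SD, n = 6) for Rrp12 to 461 ± 42 for Npm1. Ncl at 318 ± 18 and Nop56 at 205 ± 9.5 TPM came next.

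Against controls, 31 of the 35 genes were higher in knockout-labelled thymocytes and 0 were lower at an adjusted p under 0.05 (edgeR). Among all 14933 genes tested, 16.4% were called higher and 10.0% lower in this comparison. The median log2 fold change of the 35 was 0.37, against 0.018 for all genes tested. In transgenic thymocytes, 30 were higher and 1, Wdr12, was lower, with 23.0% of all genes called higher and 15.6% lower. The median was 0.34, against 0.030 for all genes. In 18 of the 35, every knockout-labelled library lay above every control (8.78% of all genes did so), and in 26 every transgenic library did (13.7% of all genes). Fitted folds of the called genes lay between 1.13 and 1.76 in knockout-labelled and, for those called higher, between 1.13 and 1.94 in transgenic libraries. Both comparisons use the same 6 controls, so they are not independent. Tested against a fold of 1.2, 8 and 10 of the 35 genes were called higher, beside 316 and 987 of all 14933 genes. In males alone 14 and 8 were, beside 1486 and 1480 of all 15123 genes tested there. Once transgenic replicates 3 and 5 and control replicate 2 were left out, 20 and 23 were, beside 1296 and 2276 of all 15222 genes. In those 3 libraries, 10 interferon response genes summed to 1392, 883.7 and 721.8 CPM, against 159.8 to 476.6 CPM in the other 13. Adjustment for GC content and transcript length left 25 and 22 called higher, and it turned the split of all called genes from 2449 higher and 1493 lower to 1969 and 2046 in the knockout-labelled group, and from 3438 and 2327 to 2409 and 3328 in the transgenic group.

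**Figure D1:**
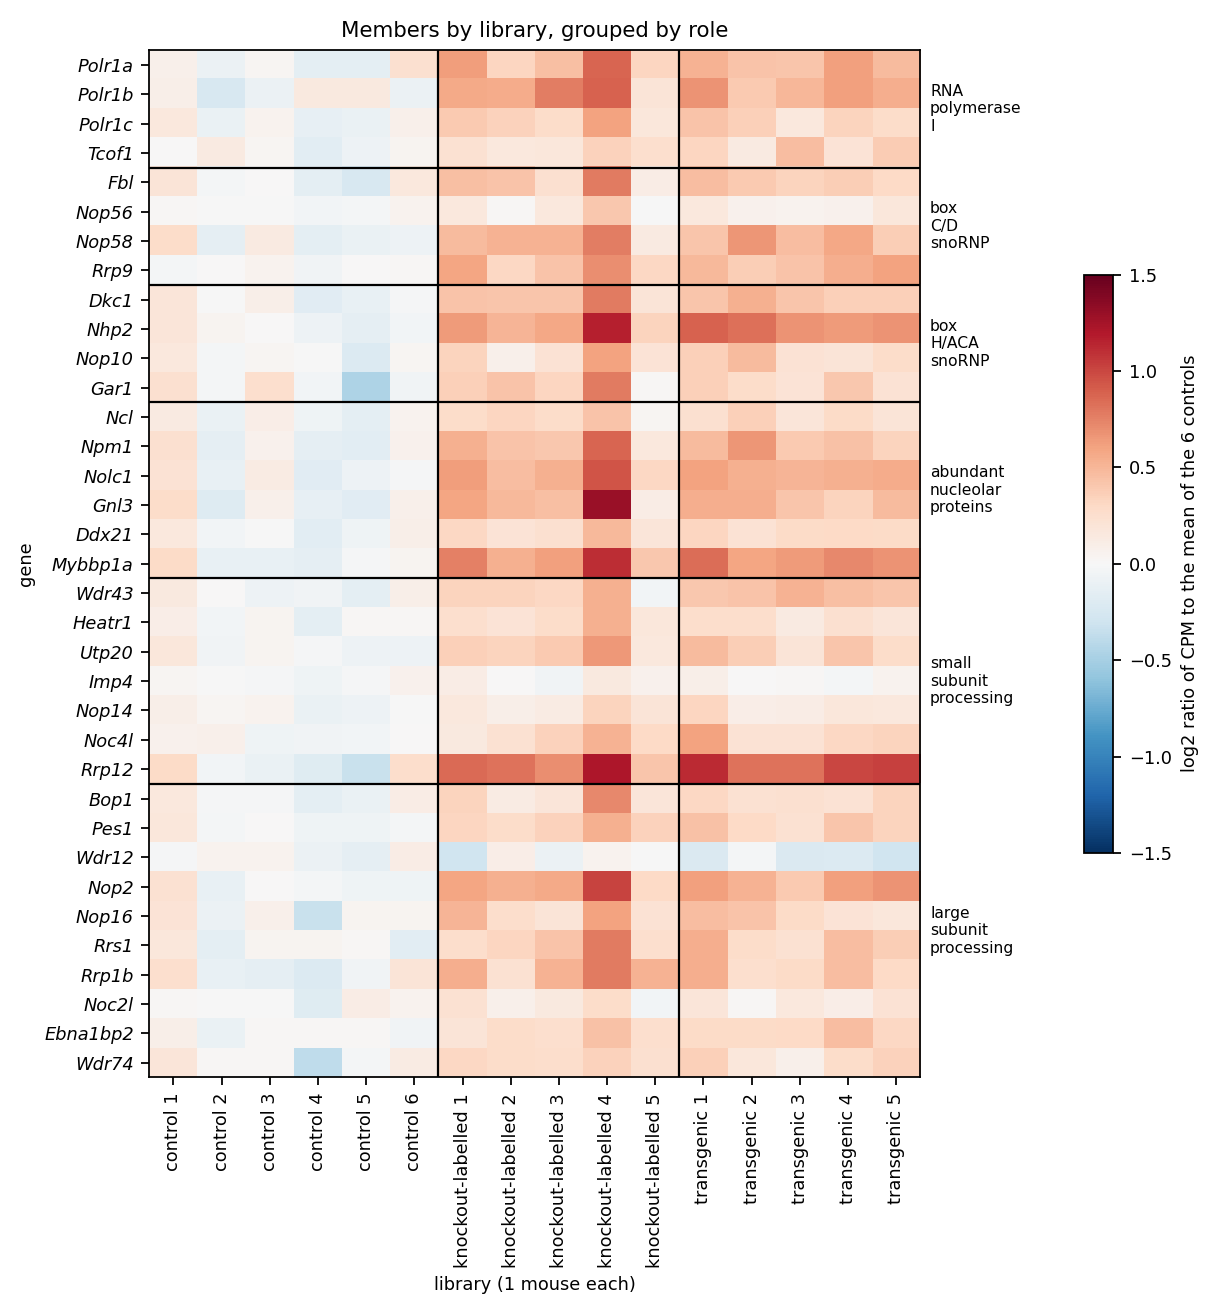
Each cell is the log2 ratio of a gene's CPM in 1 library to the mean of the 6 controls, with genes in rows grouped by role and libraries in columns grouped by genotype label. Both non-control groups are red in nearly every row, knockout-labelled replicate 4 is the darkest column, and the Imp4 and Wdr12 rows stay pale or turn blue.

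Transcription by RNA polymerase I was covered by 4 genes, and 4 rose in the knockout-labelled and 4 in the transgenic group. Polr1a, the largest subunit, had 30.1, 32.9 and 39.5 CPM as the lowest, median and highest control. It had 51.7, 42.0, 45.8, 61.3 and 42.0 CPM in knockout-labelled replicates 1 to 5, and 48.0, 44.9, 44.6, 51.3 and 46.7 CPM in transgenic replicates 1 to 5. No library of either group reached down to the controls. Its log2 fold change was 0.54 ± 0.10 (SE; adjusted p = 0.00132) in knockout-labelled and 0.49 ± 0.10 (adjusted p = 9.2e-04) in transgenic thymocytes. Polr1b, the second catalytic subunit, rose 1.55-fold and 1.47-fold. Polr1c, a subunit shared with RNA polymerase III, had 34.7, 33.6, 32.0, 40.2 and 29.8 CPM in the knockout-labelled and 35.5, 33.8, 29.5, 33.3 and 32.1 CPM in the transgenic libraries, against 24.3 to 29.6 CPM in controls (median 26.1). Transgenic replicate 3 was the only library of either group inside the control range. Polr1c rose 1.29-fold (log2 0.37 ± 0.08, adjusted p = 0.00321) and 1.24-fold (0.31 ± 0.08, adjusted p = 0.00503). Tcof1, which encodes treacle, a nucleolar protein needed for transcription of the rRNA genes, had the smallest change of the 4, from 231 ± 15.7 CPM (SD, n = 6) in controls to 271 ± 14.2 (n = 5) and 285 ± 26.2 (n = 5). Its knockout-labelled libraries, at 271, 258, 260, 293 and 275 CPM, all lay above the highest control at 253 CPM, while transgenic replicate 2, also at 253 CPM, did not. The Tcof1 call in the knockout-labelled group was lost without knockout-labelled replicate 1 (adjusted p = 0.078) or replicate 4 (adjusted p = 0.0765).

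Of the 4 genes for core or associated proteins of box C/D snoRNPs, 3 rose in the knockout-labelled and 3 in the transgenic group. Nop58, which binds the guide RNA, had 57.0, 59.5 and 76.3 CPM as the lowest, median and highest control. In knockout-labelled replicates 1 to 5 it had 88.3, 91.2, 90.6, 107.9 and 69.6 CPM, and transgenic replicates 1 to 5 had 84.3, 100.1, 87.0, 94.9 and 81.5 CPM. Only knockout-labelled replicate 5 fell inside the control range. The log2 fold changes were 0.48 ± 0.10 (adjusted p = 0.00323) and 0.50 ± 0.10 (adjusted p = 0.00121). Fbl, the methyltransferase fibrillarin, rose 1.34-fold and 1.29-fold. Rrp9, a protein specific to the U3 snoRNP, had controls close together, at 13.6, 14.1 and 14.6 CPM as lowest, median and highest. Its knockout-labelled libraries had 21.3, 17.4, 19.0, 22.8 and 17.5 CPM and its transgenic libraries 19.7, 18.1, 18.9, 20.5 and 21.3 CPM, all above the controls. It rose 1.39-fold (log2 0.48 ± 0.08, adjusted p = 6.4e-04) and 1.4-fold (0.49 ± 0.08, adjusted p = 1.6e-04). Nop56, the partner of Nop58 in the same particle, was not called in either group. Its controls had 126.7, 129.4 and 135.2 CPM as lowest, median and highest, knockout-labelled replicates 1 to 5 had 145.2, 131.6, 145.2, 172.3 and 129.2 CPM, and transgenic replicates 1 to 5 had 145.2, 136.1, 134.4, 136.4 and 146.4 CPM. The ranges overlapped in both comparisons, with log2 fold changes of 0.16 ± 0.06 (adjusted p = 0.0758) and 0.10 ± 0.06 (adjusted p = 0.189). Nop56 is also the gene with the most snoRNAs in its span, among them the Snord110 printed above.

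All 4 genes for proteins of the box H/ACA core rose in the knockout-labelled and 3 in the transgenic group. Nhp2 had the third largest log2 fold change of the 35 in the first and the second largest in the other. Its controls had 13.4, 14.5 and 16.6 CPM as lowest, median and highest. The 5 knockout-labelled replicates, in order, had 22.9, 20.9, 21.9, 33.0 and 18.5 CPM and transgenic replicates 1 to 5 had 27.0, 26.1, 23.4, 22.8 and 23.5 CPM, so neither group overlapped the controls. The log2 fold changes were 0.68 ± 0.12 (adjusted p = 0.00115) and 0.74 ± 0.12 (adjusted p = 1.9e-04). Dkc1, the pseudouridine synthase dyskerin, went from 44.4 to 56.7 CPM in controls (median 49.3) to 67.2, 66.5, 66.6, 85.1 and 56.8 CPM in knockout-labelled and 66.4, 72.0, 66.6, 63.6 and 64.0 CPM in transgenic libraries. Knockout-labelled replicate 5 was the nearest to the controls and still above them. The log2 fold changes of Dkc1 were 0.45 ± 0.09 (adjusted p = 0.00173) and 0.41 ± 0.08 (adjusted p = 0.00111), and Nop10 rose 1.24-fold in both groups. Gar1 was called higher in the knockout-labelled group (0.36 ± 0.12, adjusted p = 0.0385) and not in the transgenic group (0.29 ± 0.12, adjusted p = 0.0732). Its controls had 11.5, 15.5 and 18.9 CPM as lowest, median and highest, its knockout-labelled libraries 20.3, 21.4, 19.8, 27.3 and 16.04 CPM, and its transgenic libraries 20.4, 19.2, 18.4, 20.9 and 18.5 CPM. Both groups overlapped the controls. The Gar1 call in the knockout-labelled group was lost in 19 of 31 alternatives, and the adjusted p was 0.142 without knockout-labelled replicate 4, the highest of all libraries.

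Of the 6 genes in the role called abundant nucleolar proteins, 6 rose in the knockout-labelled and 6 in the transgenic group. Every transgenic library lay above every control for each of the 6. Their control means ran from 20.1 TPM (Gnl3) to 461 TPM (Npm1), so the role name is not a measured level. Mybbp1a, a nucleolar protein first known as a partner of Myb, had 57.8, 60.5 and 77.2 CPM as lowest, median and highest control. Knockout-labelled replicates 1 to 5 had 106.7, 91.7, 96.7, 135.8 and 83.5 CPM, and transgenic replicates 1 to 5 had 113.2, 95.7, 98.2, 104.3 and 100.7 CPM, all above the controls. The fold was 1.63 (log2 0.70 ± 0.11, adjusted p = 7.2e-04) in the first and 1.62 (0.69 ± 0.11, adjusted p = 2.2e-04) in the second. Nolc1, which binds snoRNPs, had 77.9, 69.4, 72.8, 97.2 and 62.5 CPM in knockout-labelled and 76.9, 73.1, 71.9, 73.3 and 74.1 CPM in transgenic libraries, all above controls at 45.0 to 58.5 CPM (median 48.9). It rose 1.49-fold (log2 0.58 ± 0.09, adjusted p = 7.7e-04) and 1.46-fold (0.54 ± 0.09, adjusted p = 3.5e-04). Npm1, nucleophosmin, rose 1.42-fold and 1.38-fold, from 283 ± 31.5 CPM in controls to 399 ± 74.2 and 391 ± 35.2. Ncl, nucleolin, the gene with the highest CPM of the 35, rose 1.2-fold and 1.19-fold, and Ddx21, an RNA helicase, 1.21-fold in both. Gnl3, the GTPase nucleostemin, spread widely within a group. It had 33.3, 31.0, 30.1, 54.0 and 23.8 CPM in knockout-labelled replicates 1 to 5, against 19.4 to 26.7 CPM in controls (median 21.7) and 32.2, 32.2, 29.4, 27.9 and 30.6 CPM in transgenic replicates 1 to 5. Knockout-labelled replicate 5 was inside the control range. Its log2 fold change was 0.64 ± 0.17 (adjusted p = 0.0114) in the knockout-labelled group and 0.46 ± 0.16 (adjusted p = 0.0358) in the transgenic group, where the call was lost in 18 of 31 alternative analyses.

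**Figure D2:**
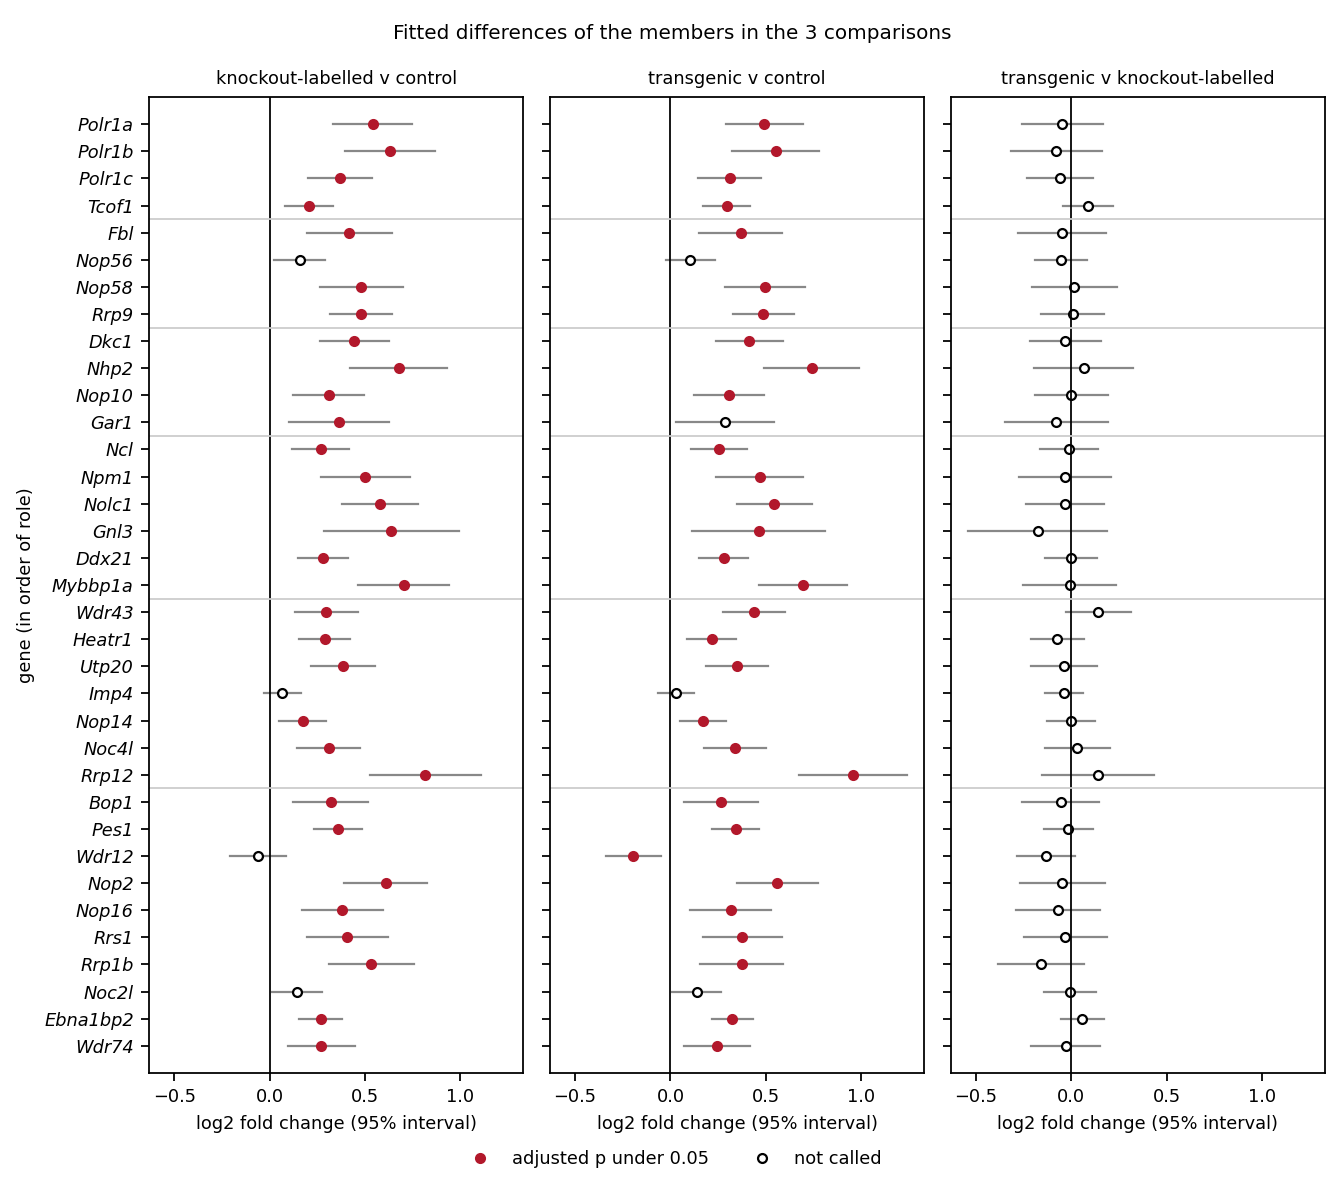
Points are fitted log2 fold changes of the 35 genes with 95% intervals in the 3 comparisons, filled where the adjusted p was under 0.05. The first and second panels have 31 and 31 filled points, with Wdr12 as the filled point left of 0, and the third has none.

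Processing of the small subunit was covered by 7 genes, of which 6 rose in the knockout-labelled and 6 in the transgenic group. Rrp12 (chr19:41862851-41896173, minus strand), which acts in the maturation and export of the small subunit, had the largest fold of all 35. Its controls had 6.95, 8.36 and 10.7 CPM as lowest, median and highest. In knockout-labelled replicates 1 to 5 it had 15.9, 15.4, 14.2, 20.4 and 11.7 CPM and transgenic replicates 1 to 5 had 19.1, 15.5, 15.4, 17.6 and 17.9 CPM. Neither group overlapped the controls, and the folds were 1.76 (log2 0.82 ± 0.14, adjusted p = 8.7e-04) and 1.94 (0.96 ± 0.13, adjusted p = 8.6e-05). Wdr43, a part of the early processome, had 62.3, 61.9, 61.2, 71.3 and 48.0 CPM in knockout-labelled and 64.9, 66.2, 70.4, 67.6 and 65.7 CPM in transgenic libraries, against 44.7 to 54.4 CPM in controls (median 48.6). Only knockout-labelled replicate 5 sat within the control range. Wdr43 rose 1.23-fold (log2 0.30 ± 0.08, adjusted p = 0.0111) and 1.36-fold (0.44 ± 0.08, adjusted p = 4.1e-04). Heatr1, Utp20 and Noc4l, further processome parts, rose 1.22-fold, 1.31-fold and 1.24-fold in knockout-labelled and 1.16-fold, 1.27-fold and 1.27-fold in transgenic libraries. Nop14 rose least, 1.13-fold in both, and its calls (adjusted p = 0.0377 and 0.0263) were lost in 23 and 20 of 31 alternatives.

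Imp4, a U3 snoRNP protein, was nearly level. Its controls had 51.1, 53.1 and 56.1 CPM as lowest, median and highest. The 5 knockout-labelled replicates, in order, had 57.7, 53.8, 51.6, 59.3 and 56.1 CPM, and transgenic replicates 1 to 5 had 57.0, 53.6, 54.2, 52.3 and 55.3 CPM. The ranges of the 3 groups overlapped, with log2 fold changes of 0.07 ± 0.05 (adjusted p = 0.298) and 0.03 ± 0.04 (adjusted p = 0.651). The sign of the second value turned with the scaling of the libraries. Imp4 is 1 of the 2 genes with CACGTG in the 250 bases printed above.

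**Figure D3:**
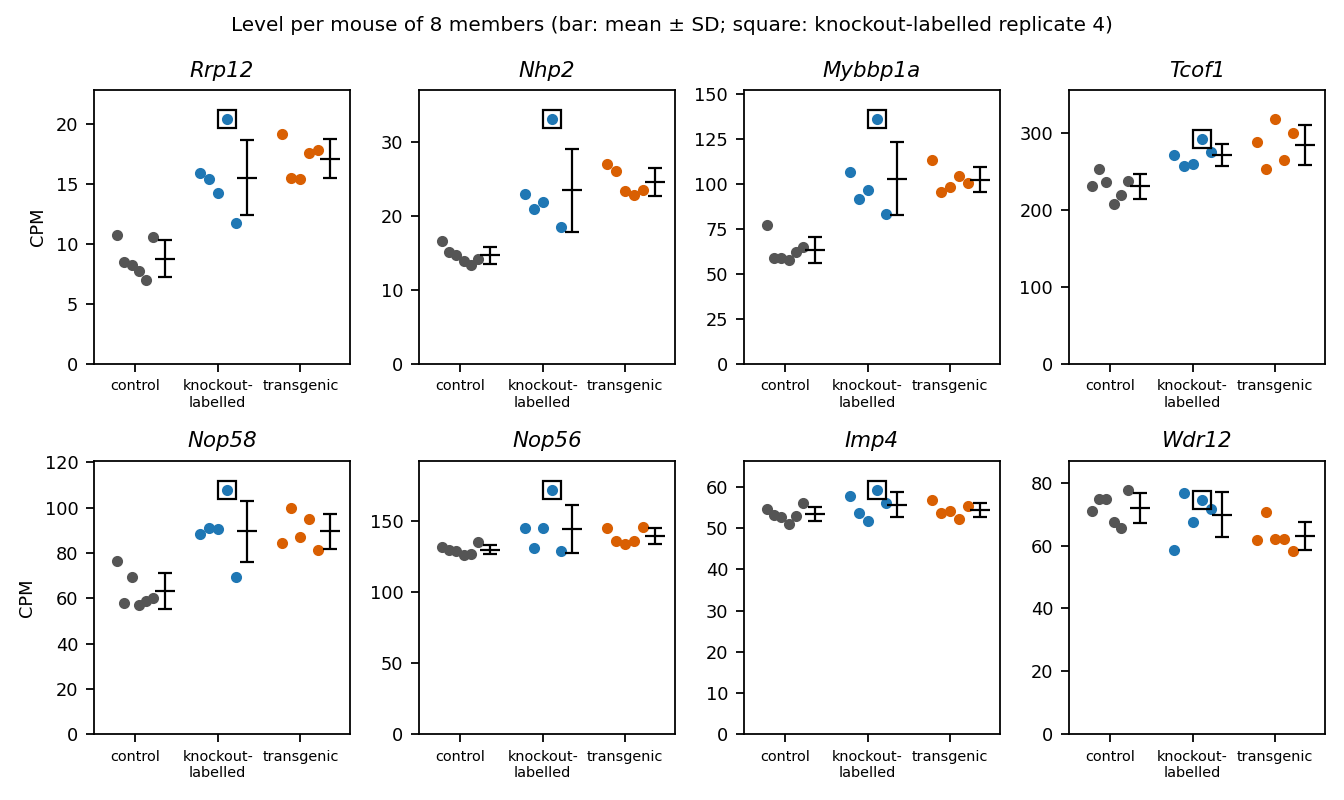
CPM per mouse of 8 genes, 1 point per library in replicate order, with mean ± SD beside each group and a square on knockout-labelled replicate 4. Rrp12, Nhp2 and Mybbp1a separate both groups from the controls, Nop56 and Imp4 overlap, and most transgenic points of Wdr12 lie below the controls.

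Of the 10 large subunit genes, 8 rose in the knockout-labelled and 8 in the transgenic group. Bop1, Pes1 and Wdr12 encode the 3 proteins of the PeBoW complex, which large subunit rRNA maturation requires. Bop1 and Pes1 rose in both comparisons and Wdr12 in neither. Pes1 had 40.0, 40.9 and 47.1 CPM as lowest, median and highest control. It had 52.5, 50.7, 53.2, 60.4 and 53.2 CPM in knockout-labelled replicates 1 to 5 and 56.8, 51.4, 48.9, 55.9 and 52.6 CPM in transgenic replicates 1 to 5. No library of either group overlapped the controls, and the log2 fold changes were 0.36 ± 0.06 (adjusted p = 7.6e-04) and 0.34 ± 0.06 (adjusted p = 3.1e-04). Bop1 rose 1.25-fold and 1.2-fold, the latter lost in 18 of 31 alternatives.

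Wdr12 is at chr1:60069785-60098645 on the minus strand. Its controls had 65.4, 72.9 and 77.7 CPM as lowest, median and highest. Knockout-labelled replicates 1 to 5 had 58.4, 76.8, 67.5, 74.5 and 71.6 CPM, a spread that reached below the lowest control, and transgenic replicates 1 to 5 had 61.7, 70.6, 62.1, 62.2 and 58.3 CPM. All transgenic libraries but replicate 2 were below the lowest control. The log2 fold change was -0.06 ± 0.07 (adjusted p = 0.556) in the knockout-labelled group and -0.19 ± 0.07 (adjusted p = 0.033) in the transgenic group. The second call was lost without control replicate 3, transgenic replicate 1 or transgenic replicate 3 (adjusted p of 0.0609, 0.0652 and 0.067), and when GC content and transcript length were corrected for (-0.06, adjusted p = 0.497).

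Nop2, an rRNA methyltransferase whose upstream bases are printed above, rose most among the large subunit genes, 1.52-fold and 1.48-fold. Rrp1b rose 1.45-fold and 1.30-fold, Rrs1, which brings in the 5S RNP, 1.33-fold and 1.30-fold, and Nop16 1.30-fold and 1.24-fold. Ebna1bp2, a large subunit assembly factor, had 42.6, 45.1, 44.3, 50.5 and 44.2 CPM in knockout-labelled and 45.5, 45.3, 46.0, 51.5 and 46.1 CPM in transgenic libraries, all above the controls at 34.8 to 39.6 CPM (median 37.7). It rose 1.2-fold (log2 0.27 ± 0.05, adjusted p = 0.00208) and 1.25-fold (0.33 ± 0.05, adjusted p = 1.9e-04). Wdr74 rose 1.21-fold and 1.18-fold, with the transgenic call lost in 15 of 31 alternatives. Noc2l had 55.0, 62.6 and 67.1 CPM as lowest, median and highest control, 72.8, 65.7, 68.7, 75.6 and 60.6 CPM in knockout-labelled and 70.4, 63.3, 69.7, 66.5 and 72.4 CPM in transgenic libraries, with overlap in both comparisons. It was not called (log2 0.14 ± 0.06 in both, adjusted p = 0.103 and 0.0892). Its exons share 20.9% of their bases with Samd11 on the opposite strand, the largest such overlap of the 35. The kit marks strand, but the strand setting of the counting is not given here. Another 14 genes share 5.27% or less with a gene on the other strand.

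The direct comparison of the 2 non-control groups found 0 of 35 genes higher and 0 lower in transgenic than in knockout-labelled thymocytes. No gene of the 35 reached an unadjusted p under 0.05 either, with edgeR or with DESeq2 (0 and 0 genes), while 1.07% and 0.0938% of all genes were called higher and lower by edgeR. The median log2 difference of the 35 was -0.032. The 95% intervals of the single genes ran from -0.54 (Gnl3) to 0.43 (Rrp12), and in 34 of 35 the interval stayed within 0.5 on either side of 0. The largest differences were -0.18 ± 0.17 for Gnl3, -0.16 ± 0.11 for Rrp1b, 0.14 ± 0.08 for Wdr43 and 0.14 ± 0.14 for Rrp12. For Wdr12, called lower than controls in the transgenic group only, the difference between the 2 groups was -0.13 (95% interval -0.29 to 0.02). Both groups differ in Nfkbid, at 208 ± 72.1 CPM in transgenic and 31.6 ± 4.3 CPM in knockout-labelled libraries.

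Libraries differed as a whole as well as by group. The median log2 ratio of the 35 genes to the control mean was 0.16, -0.04, 0.03, -0.12, -0.08 and 0.04 in control replicates 1 to 6. It was 0.35, 0.32, 0.32, 0.65 and 0.19 in knockout-labelled replicates 1 to 5, and 0.42, 0.36, 0.29, 0.37 and 0.33 in transgenic replicates 1 to 5. The groups did not overlap with the controls, though control replicate 1 and knockout-labelled replicate 5 came close to each other. Summed, the 35 genes held 0.23% to 0.271% of all counts of a control library, 0.292% to 0.31% of a transgenic one and 0.275% to 0.362% of a knockout-labelled one. Knockout-labelled replicate 4, which is also the deepest library (35637813 estimated counts), had the highest level of its group in 34 of 35 genes and of all 16 libraries in 30. Without it, 26 of 35 genes were called higher in the knockout-labelled group, beside 1721 of all 15091 genes tested there. Control replicate 1 was the highest control in 25 genes, and control replicate 4 the lowest in 19.

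**Figure D4:**
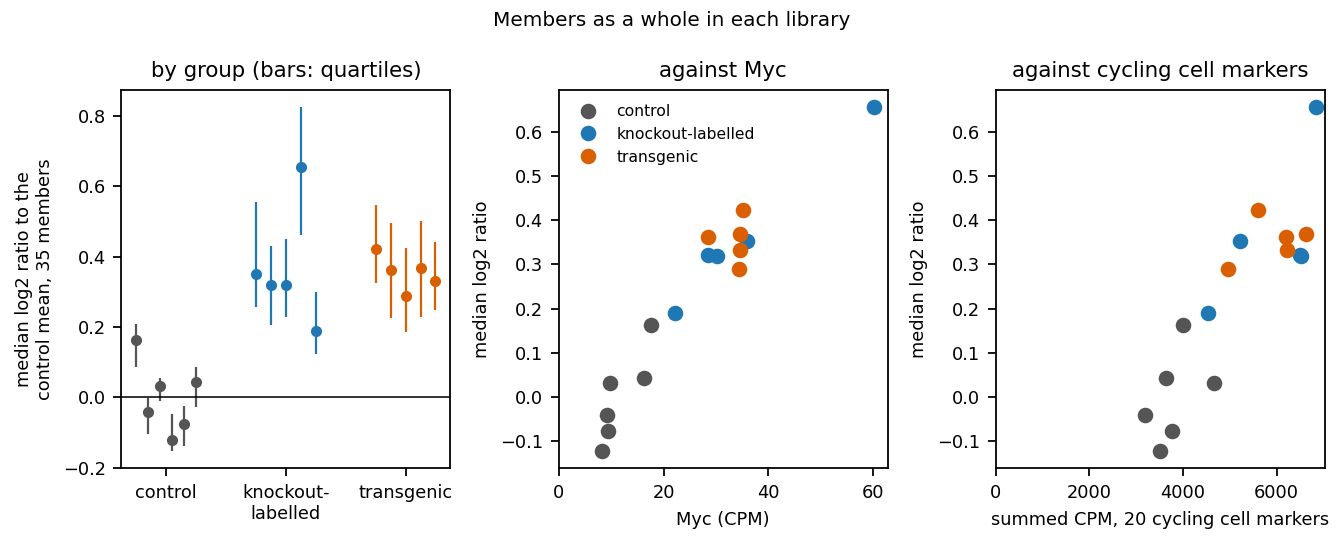
Left, the median log2 ratio of the 35 genes to the control mean in each library, with quartiles as bars; middle and right, the same median plotted against Myc (CPM) and against the summed CPM of 20 cycling cell markers. Control libraries lie at the lower left of both plots, and knockout-labelled replicate 4, at 60.1 CPM of Myc, lies at the upper right.

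After group and sex were fitted, what remained was shared among the genes. The first principal component of the residual log2 levels held 63% of their variance in the 35 genes, against 19.6% over all genes tested, and all 35 genes had the same sign on it. The median correlation of 2 genes over the 16 residuals was 0.63 (595 pairs). The genes share library, depth and scaling in this measure. Wdr12 followed the others least, with a median correlation of 0.09, and Tcof1 was next at 0.27.

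Myc had 8.32 to 17.5 CPM in controls, with replicates 1 and 6 (17.5 and 16.2 CPM) above the other four, which had 9.75 CPM or less. It had 35.9, 28.5, 30.2, 60.1 and 22.2 CPM in knockout-labelled replicates 1 to 5, and 35.2, 28.4, 34.3, 34.6 and 34.6 CPM in transgenic replicates 1 to 5. The log2 fold changes were 1.57 ± 0.26 (adjusted p = 0.00129) and 1.5 ± 0.26 (adjusted p = 6.4e-04). Knockout-labelled replicate 4 was highest and replicate 5 lowest of its group in Myc, as in the median of the 35 genes. Among controls, replicate 1 was highest and replicate 4 lowest in both. In the transgenic group, replicate 1 was highest in both, but replicate 2 was lowest in Myc and replicate 3 in the median. Myc's part in the result was not tested.

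Markers of cycling cells moved with the 35 genes. Of all genes tested, 16.4% were called higher and 10.0% lower in knockout-labelled, and 23.0% and 15.6% in transgenic thymocytes. These shares stand beside each marker count. Of 20 cycling cell markers, 18 were higher in knockout-labelled and 18 in transgenic thymocytes, and Ccne2 and Tyms were not called in either. Their summed level was 3191 to 4671 CPM in controls, 4526 to 6846 CPM in knockout-labelled and 4961 to 6623 CPM in transgenic libraries, so the control and knockout-labelled ranges overlap. In sorted bulk RNA, a larger share of cycling cells and more RNA per cell cannot be told apart. Of 14 tested immediate-early and handling-stress genes (Fos, Jun, Dusp1 and the like), 10 fell in the knockout-labelled and 9 in the transgenic group, with summed levels of 1400 to 1900 CPM in controls, 1093 to 1345 CPM in knockout-labelled and 1107 to 1280 CPM in transgenic libraries. Of the 14 genes listed as double-positive markers, 5 and 9 fell and 1, Ptcra, rose in both. Their summed ranges (6816 to 10010, 7202 to 8891 and 6921 to 7679 CPM) overlap. Ptcra was the lowest of the 14 in every library, at 1.302 to 3.263 CPM in controls. It had 2.232 to 4.829 CPM in knockout-labelled and 2.619 to 3.894 CPM in transgenic libraries. Of 9 tested double-negative markers, 2 and 5 rose, in ranges of 439 to 591, 484 to 599 and 525 to 672 CPM. The part of these genes in the result was not tested.

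Other cell types left small signals. Their counts of markers called higher stand beside 16.4% and 23.0% of all genes called higher. B cell markers (8 genes) summed to 6.64 to 13.9 CPM in controls, 8.22 to 17.7 CPM in knockout-labelled libraries and 12.4 to 42.7 CPM in transgenic ones, with 0 and 5 of 7 tested markers higher. Macrophage and monocyte markers (10 genes) summed to 11.8 to 19.7, 10.5 to 17.6 and 20.03 to 25.03 CPM, with 0 and 6 of 8 higher. Dendritic cell markers (8 genes) summed to 46.8 to 52.6, 52.1 to 64.2 and 58.6 to 70.0 CPM, most of it Cst3, with 1 and 4 of 6 higher. Foxn1, the defining gene of thymic epithelium, was at 0.084 CPM or less in every library and at 0 in all controls. Erythroid markers summed to 7.25 to 131, 5.27 to 62.4 and 10.4 to 66.9 CPM, with 0 of 5 called. No marker was at 0 in every library. The part of these cells in the result was not tested.

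Sex made no called difference in the 35 genes: 0 were called between males and females (0 at an unadjusted p under 0.05), against 0.141% of all genes. How the transgenic effect differed between the sexes was called for 0 of 35 genes, against 0.0278% of all genes. It was negative, meaning a smaller effect in males, in 28 of 35, with a median of -0.14 against 0.017 for all genes, and it had an unadjusted p under 0.05 in 4 genes (Dkc1, Nhp2, Nop10 and Npm1). The size of that median depended on the 2 transgenic females. It was -0.0635 without transgenic replicate 1 and -0.195 without transgenic replicate 2. With males alone, 8 genes were called higher in the transgenic group and the median log2 fold change was 0.25. The sexes also differed in depth among the controls, where all 3 males had more counts than all 3 females.

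The other genes of the pathway were taken from wider lists that leave out the 35, and 130 of 132 listed genes were found in the tables. Of these 130, 58 were higher and 2 lower in knockout-labelled thymocytes, with a median log2 fold change of 0.16. Of all genes tested, 16.4% were higher and 10.0% lower there. In transgenic thymocytes, 63 were higher and 3 lower, with a median of 0.16, against 23.0% and 15.6% of all genes. These shares stand beside each list below. Between the 2 groups 0 of the 130 were called, against 1.07% of all genes called higher and 0.0938% lower. Of 12 other RNA polymerase I genes, 1 and 3 were higher, against 16.4% and 23.0% of all genes. Their medians were 0.09 and 0.03, against 0.018 and 0.030 for all genes. Cd3eap, a polymerase I subunit, was higher in both comparisons, at 3.56 ± 0.40 CPM in controls, 5.03 ± 0.82 CPM with the knockout label and 5.61 ± 0.66 CPM with the transgene (adjusted p = 0.0113 and 8.1e-04). Of 9 snoRNP assembly factors, 6 rose in the knockout-labelled and 6 in the transgenic group, with medians of 0.36 and 0.35. Among them Pih1d1, a part of the R2TP complex that assembles snoRNPs, went from 22.2 ± 1.5 CPM to 28.4 ± 1.5 and 29.4 ± 2.2.

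Of 43 other small subunit factors, 17 were higher and 1 lower in each group. Rcl1 had the largest change, from 7.58 ± 0.67 CPM in controls to 13.2 ± 2.3 in knockout-labelled and 12.8 ± 1.2 in transgenic libraries (log2 0.81 ± 0.11 and 0.76 ± 0.11, adjusted p = 3.5e-04 and 1.0e-04). Kri1 was lower in both, just past the threshold (adjusted p = 0.049 and 0.0484), from 78.9 ± 4.7 CPM to 69.9 ± 4.4 and 71.2 ± 4.8. Of 52 other large subunit factors, 25 were higher in each group, and 1 and 2 were lower. Lyar rose from 22.4 ± 1.7 CPM to 35.5 ± 6.8 and 35.2 ± 2.4. Ddx55, an RNA helicase, fell from 57.0 ± 5.0 CPM to 49.2 ± 3.2 and 45.7 ± 1.8 (adjusted p = 0.0273 and 5.3e-04). Nvl, an AAA ATPase, was called lower in the transgenic group, at 110 ± 3.2 against 118 ± 3.8 CPM (adjusted p = 0.0398), and had 116 ± 2.6 CPM in the knockout-labelled group (adjusted p = 0.51). Of 14 genes in the exosome list, 9 and 12 rose. The list holds the RNA-degrading complex that trims rRNA ends, its partners and Xrn2, a separate exonuclease that rose in both groups. Exosc8 went from 41.2 ± 2.9 CPM to 53.5 ± 4.6 and 54.2 ± 2.3.

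**Figure D5:**
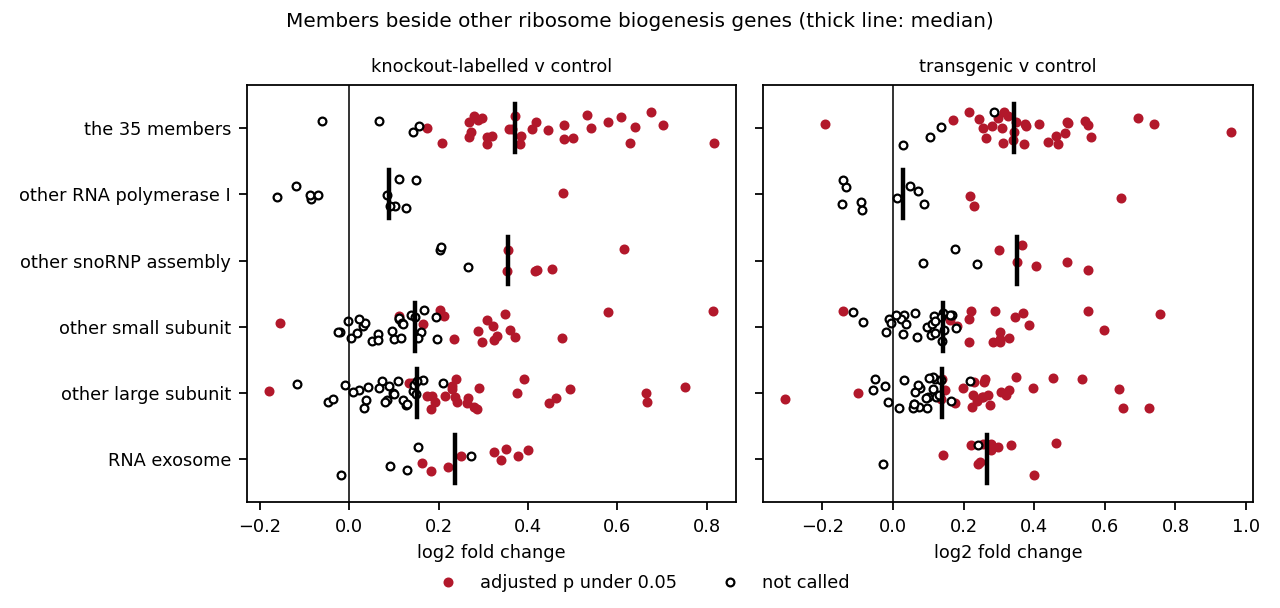
Each point is the log2 fold change of 1 gene against controls, for the 35 genes and the 5 wider lists, filled where the adjusted p was under 0.05, with the list median as a thick line; the vertical scatter carries no value. The medians of the 35 genes and the snoRNP assembly factors lie to the right of the others, and that of the other RNA polymerase I genes lies near 0.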

How the data were processed

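Total RNA of flow-sorted live CD4+CD8+ thymocytes was made into stranded KAPA libraries, per the labels' protocols. The submitters' processing notes list Bowtie 1.0.0, SAMtools 0.1.18, edgeR 3.24.3 and GRCm38 (mm10). Those notes do not say which program counted. Each deposited file gives every gene identifier an estimated count and a TPM. Above 0, 58.7% of the deposited counts were whole within 1e-06; the source of the fractions was not tested. Among the 35 genes, 17 had a fractional count in at least 1 library. The authors' TPM served only to compare levels between genes, and was also set beside the CPM of Nop56.

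Symbols came from GENCODE (GRCm38), which named 46005 of 46517 identifiers; the other 512 held 0.171% of the counts. After rounding, the counts were tested with edgeR 4.0.16 (R 4.3.3), with limma 3.58.1 and DESeq2 1.42.0 as alternatives. The function filterByExpr, with the groups given, removed low genes, and TMM scaled the libraries. The robust quasi-likelihood fit had terms for group and sex over the 16 libraries, with 12 residual degrees of freedom. P-values are two-sided and adjusted by the Benjamini-Hochberg method over 14933 genes (14385 for the sex difference of the transgenic effect), with a threshold of 0.05. CPM uses TMM-scaled library sizes, and ± is SD over mice for levels and SE for log2 fold changes. The method was tested on simulated data. Chi-square per degree of freedom between 2 libraries of a group was 4.55 to 80.4, so none was a re-run of another.

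The 35 genes, the 6 roles, the wider and marker lists and the alternatives were chosen with earlier results of these data known. By the rule for named genes, full values are given per role for the 2 members with the smallest and the 1 with the largest p in transgenic v control, and for members called lower; in each wider list, the gene with the smallest p there and up to 2 called lower are named. The promoter window with 50 further bases, and the printed Nop2 and Utp20 sequences, were chosen after values were seen. Proteins were not analysed here. The summed level of the thymic epithelium markers is not reported here.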

Additional observations from a re-analysis of the deposited data

Results flagged for a closer look

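In 7 of 105 sets of 1 gene in 1 group, the highest library stood apart from the others of its group by more than Dixon's 95% critical value. Chance passes that value in about 1 in 20 sets when both ends of a set are counted. The sets share libraries, so they are not independent. In knockout-labelled replicate 4 the flagged values were Heatr1 at 101.4 CPM, against 79.0 to 85.0 CPM in the other replicates, and Pes1 at 60.36 CPM, against 50.7 to 53.2 CPM. In transgenic replicate 1 they were Nop14 at 44.93 CPM and Noc4l at 36.73 CPM, and in transgenic replicate 4 Ebna1bp2 at 51.53 CPM. In control replicate 1 they were Pes1 at 47.11 CPM and Nop2 at 24.69 CPM. No explanation was tested for any of them.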

How the results depend on the processing

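The 3 group comparisons were recomputed under 31 alternatives (DESeq2, RLE size factors, library totals alone, limma-voom, other filters, dropping the sex term or the robust option, males only, fits of 2 groups, the replicate block, a GC and length correction, a test against a fold of 1.2, without 2 sets of libraries, and without each library). The sets were picked from earlier results of these data. One, called interferon-high, is described above; the other, called class II-high, is control replicate 1 and knockout-labelled replicates 1 to 3, with 28.86 and 82.93 to 97.66 summed CPM of 6 class II genes, against 9.684 to 14.0 in the other controls, 12.24 and 16.12 in the other knockout-labelled libraries and 56.23 to 98.18 in the transgenic ones, which were kept. The 0 genes called by sex and by the sex difference of the transgenic effect stayed 0 under 18 and 13 alternatives. In the knockout-labelled group, the count of genes called higher moved by more than 1.5 times from 31. It did so with males only (14), a fold of 1.2 (8) and without the interferon-high libraries (20). Counts over all genes in those settings are given above beside the first counts. In the transgenic group the count of genes called higher moved from 30 with males only (8) and a fold of 1.2 (10). Wdr12, the 1 gene called lower there, gave a count of 0 with the GC correction, a fold of 1.2 and without the interferon-high libraries. The transgenic median was 0.251 with males only and 0.242 with the GC correction. Fewer samples in the males-only fit and a harder null in the fold test are built into those settings; the cause of the other changes was not tested.

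Leaving out each library gave 25 to 31 genes higher and a median of 0.283 to 0.41 in the knockout-labelled group. Of all 14842 to 15163 genes tested in those fits, 1608 to 2345 were called higher there. In the transgenic group, 23 to 30 were higher and 0 to 1 lower, with a median of 0.3 to 0.375. Among all genes, 2533 to 3405 were called higher and 1855 to 2846 lower in that group. Between the 2 groups the count was 0 under all 31 alternatives. The sign of Wdr12 in the knockout-labelled group turned with the GC correction (0.0924), without the class II-high libraries (0.029) and in 1 leave-one-out fit, without knockout replicate 1, over a leave-one-out range of -0.117 to 0.0228. The Imp4 value in the transgenic group turned with DESeq2 (-0.00635), RLE size factors (-0.00585), a 1 CPM filter (-0.00797), only the groups compared (-0.00472), males only (-0.0173), the GC correction (-0.0336) and without the interferon-high libraries (-0.0179), and it ran from -0.0114 to 0.0282 over the leave-one-out fits.

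Deviations of same-numbered libraries from their group means correlated at -0.0718 to 0.257 over 15 pairs. Differently numbered pairs were not compared, so these values do not show whether replicate numbers pair the mice. With the number as a replicate block, 30 genes were called higher in the knockout-labelled group, 30 higher and 1 lower in the transgenic group, and 0 between them. Of all 14933 genes, 2463 were called higher in the knockout-labelled group with the block. In the transgenic group 3397 were called higher and 2494 lower, and between the groups 139 and 27 were. RLE moved the median of all genes from 0.018 to -0.0056 and from 0.030 to -0.0034, which leaves the members above it. The lowest count of any of the 35 genes in a library was 130, so depth limits the precision of the least expressed members most.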
